A study of Mus musculus with 12 samples.

Results

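The genes examined were 10 markers by which inhibitory interneurons are told apart, namely Pvalb, Sst, Vip, Npy, Cck, Calb2, Reln, Lhx6, Adarb2 and Erbb4, of 21887 protein-coding genes on chromosomes 1 to 19, X and Y. They were taken by name, with gene positions from RefSeq on GRCm38 (mm10). Every called peak with at least 1 bp in the gene body or within 10 kb of its ends (the window of the gene) was collected. The 10 windows held 19 of 16002 peaks of the library from trained mice and 294 of 331236 peaks of the library from untrained mice. The peaks came from chromatin immunoprecipitation and sequencing (ChIP-seq) of dorsal hippocampus with an antibody against crotonylated lysine (pan-Kcr), on histones or other proteins. One group of C57BL/6J mice was trained in spatial object recognition, a task in which mice learn where objects stand (learning), and the other stayed in the home cage (homecage). The labels give no age and no drug treatment for these ChIP mice, and do not say whether a library pools animals. With 1 antibody library per condition there is no replicate check, and no p-value is given.

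Interneurons are the local inhibitory neurons of the hippocampus, release GABA and are far outnumbered by glutamatergic pyramidal and granule cells. They are commonly divided by origin. Cells from the medial ganglionic eminence depend on the transcription factor Lhx6 and include those that express parvalbumin or somatostatin, whereas cells from the caudal ganglionic eminence commonly express Adarb2 and include those that express vasoactive intestinal peptide or cholecystokinin. Lysine crotonylation is an acylation of histones and other proteins, found on histones at active gene starts and enhancers in many cell types. The chromatin came from whole tissue, so a peak at a marker gene cannot be assigned to interneurons. The lists carry no expression level, so the tissue label could not be checked against marker genes.

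The annotated starts show how unevenly the marker genes were placed relative to the peaks. RefSeq start windows, which run from 250 bases before to 50 bases after an annotated start on GRCm38.p6, were found for 9 of the 10 genes, with 12 starts in all. Calb2 had no entry. Of these 12 windows 1 lay under a homecage peak, the second start of Pvalb, and 0 lay under a learning peak. Both Pvalb windows are shown because they differ in that respect, the Reln window because its start lay in a long stretch without peaks, and the Sst and Vip windows because they hold the cAMP response element or its core. All are printed 5′ to 3′ on the minus strand except Vip, which is on the plus strand. In the Pvalb and Reln sequences capitals mark CG dinucleotides, in Sst the element TGACGTCA, and in Vip its core TGACG.
Pvalb first start, chr15:78206351-78206650: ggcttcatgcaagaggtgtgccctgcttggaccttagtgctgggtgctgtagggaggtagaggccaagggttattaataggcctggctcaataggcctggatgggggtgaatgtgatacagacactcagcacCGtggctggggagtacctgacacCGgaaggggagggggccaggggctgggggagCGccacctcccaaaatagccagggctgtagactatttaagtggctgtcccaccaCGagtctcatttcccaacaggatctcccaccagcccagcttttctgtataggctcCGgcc
Pvalb second start, chr15:78204188-78204487: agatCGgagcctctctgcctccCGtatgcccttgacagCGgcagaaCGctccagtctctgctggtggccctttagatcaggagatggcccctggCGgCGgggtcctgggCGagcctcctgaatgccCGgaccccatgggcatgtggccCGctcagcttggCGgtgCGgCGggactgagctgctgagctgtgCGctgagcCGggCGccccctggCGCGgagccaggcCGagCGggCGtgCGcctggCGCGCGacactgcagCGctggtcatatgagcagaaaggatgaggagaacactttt
Reln, chr5:22344656-22344955: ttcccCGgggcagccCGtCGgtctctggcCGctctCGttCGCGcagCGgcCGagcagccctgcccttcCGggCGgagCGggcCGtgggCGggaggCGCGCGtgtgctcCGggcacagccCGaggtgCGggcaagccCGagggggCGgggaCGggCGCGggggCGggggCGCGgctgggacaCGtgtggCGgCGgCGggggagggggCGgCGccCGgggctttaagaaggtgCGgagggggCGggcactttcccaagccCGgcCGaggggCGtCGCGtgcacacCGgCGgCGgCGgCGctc
Sst, chr16:23890795-23891094: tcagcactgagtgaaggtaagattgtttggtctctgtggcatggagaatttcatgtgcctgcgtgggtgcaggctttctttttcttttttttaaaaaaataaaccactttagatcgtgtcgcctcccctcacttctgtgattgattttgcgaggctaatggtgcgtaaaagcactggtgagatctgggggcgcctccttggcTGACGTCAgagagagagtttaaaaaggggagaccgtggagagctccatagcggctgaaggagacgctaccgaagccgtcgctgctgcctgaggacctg
Vip, chr10:5638968-5639267: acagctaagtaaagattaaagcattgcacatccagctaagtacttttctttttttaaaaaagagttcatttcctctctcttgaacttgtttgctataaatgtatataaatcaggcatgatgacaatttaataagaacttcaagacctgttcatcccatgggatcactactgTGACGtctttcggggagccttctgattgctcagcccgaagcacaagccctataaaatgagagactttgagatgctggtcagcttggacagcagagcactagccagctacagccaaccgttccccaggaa

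The Pvalb start under the peak was the one richer in CG. It held 25 CG dinucleotides, against 5 at the first start and a median of 7 over 32851 start windows of the same length. CG content alone did not go with a peak among these genes. Reln held 47, more than 98.6% of all start windows, and Npy 24, and neither window was under a peak. Sst carried TGACGTCA with its first base 48 bases before the start, a motif present on either strand in 1.79% of all start windows. The core TGACG was found in Sst, where its 2 matches are the strands of the same palindrome, in Vip 79 bases before the start and in Cck 47 bases before it, against 20.8% of all start windows. TATAAA was present at Vip, where the match nearest to the start began 30 bases before it, and 4 bases after the third Lhx6 start, against 13.6% of all windows. TAATTA, the core bound by many homeodomain factors, was found only at Adarb2, 51 bases before the start (5.29% of all windows). GGGCGG was found 6 times at Reln and once each at Npy, at Adarb2 and at 2 of the 3 Lhx6 starts (35.7% of all windows). CACGTG occurred at Cck and Reln (7.15% of all windows), and TGANTCA at the first Lhx6 start (7.81%). A match describes the letters and shows no binding.

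Within 1 kb of an annotated start, 3 of the 9 genes had a homecage peak (Pvalb, Vip and Npy), where 51.5% of all protein-coding genes in the start table had one. For a learning peak the numbers were 0 of 9 genes and 16.4%. The homecage count depends on the limit of 1 kb. Cck and Lhx6 missed it narrowly, with the nearest homecage peak 1027 bp and 1046 bp from the start itself. Over the start window itself the homecage count was 1 of 9 genes, where 21.3% of all genes had one, and the learning count was 0, where 5.61% had one. The distance from the start window to the nearest homecage peak was 348 bp at Vip, 636 bp at Npy, 977 bp at Cck, 996 bp at the nearest Lhx6 start, 3543 bp at Adarb2, 5521 bp at Erbb4, 8311 bp at Sst and 21627 bp at Reln. The median over all annotated protein-coding starts was 806 bp. Vip and Npy, besides the second start of Pvalb, thus lay nearer than that median and the other genes farther, and 4.91% of all such starts were farther from a homecage peak than the Reln start was.

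The first of the interneuron classes is marked by calcium-binding proteins. Pvalb encodes parvalbumin, the fast calcium buffer of fast-spiking basket and axo-axonic cells. Its window (gene chr15:78191112-78206400, 15.3 kb) held 3 homecage peaks and no learning peak. The peak over the second start, chr15:78204010-78204558, was 549 bp wide, and 80.9% of all homecage peaks were narrower. The other homecage peaks, of 293 bp and 589 bp, lay 7284 bp upstream and 8288 bp downstream of the gene. The nearest learning peak was 171 kb from the gene. Calb2 encodes calretinin, found in interneurons that mostly contact other interneurons and in mossy cells. Its window (gene chr8:110142526-110168212, 25.7 kb) held 2 homecage peaks inside the gene, of 418 bp and 454 bp, and 1 of 289 bp outside it. It was also the place of the widest of the 19 learning peaks, 515 bp at chr8:110132903-110133417, which was 9108 bp outside the gene at its end of lower coordinate and 16227 bp from the nearest homecage peak. No homecage peak lay on that side of Calb2 within 10 kb.

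Among the genes for neuropeptides, Cck was the only one with a learning peak in its window. Cck encodes cholecystokinin, a peptide of a class of basket cells that is also expressed in many pyramidal neurons. Its learning peak, chr9:121493766-121493929, was 164 bp wide and lay inside the gene, 1765 bp downstream of the start. A homecage peak of 585 bp, chr9:121494083-121494667, lay between this peak and the start, and 153 bp separated the peaks of the 2 libraries. Both peaks also lay inside the overlapping long noncoding RNA gene Gm38661, so they cannot be assigned to Cck alone. The remaining homecage peak at Cck, of 147 bp, lay 8072 bp downstream of the gene.

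Vip, the gene of vasoactive intestinal peptide and the marker of interneurons that largely inhibit other interneurons, had 5 homecage peaks within 10 kb, more than any other compact gene. In the gene body alone it had 2, as did Npy, Calb2 and Lhx6, and within 25 kb it had 8 against 10 at Npy. Its 5 peaks had widths of 147, 273, 261, 376 and 147 bp from the most upstream to the most downstream. Of these, 3 lay upstream of the gene and 2 inside it, and the widest, chr10:5639616-5639991, began 398 bp downstream of the start. Npy encodes neuropeptide Y, which is expressed by neurogliaform cells and by part of the somatostatin cells. It had 3 homecage peaks, the widest of 410 bp at chr6:49823396-49823805, which began 686 bp downstream of the start. Sst encodes somatostatin, the peptide of dendrite-targeting cells. Its whole window held 1 homecage peak, of 195 bp, 7089 bp downstream of the gene, and the 1.77 kb gene itself held none. No learning peak lay in the windows of Vip, Npy and Sst, and the nearest ones were 88.5 kb, 197 kb and 97.4 kb from the genes.

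Lhx6, the homeodomain factor of interneurons born in the medial ganglionic eminence, had 2 homecage peaks over its 24.0 kb, of 186 bp and 253 bp. The wider one, chr2:36102762-36103014, began 1046 bp downstream of the third annotated start. Of all homecage peaks, 31.3% were narrower than it. The nearest learning peak was 102 kb from the gene. Compared with Pvalb, Npy, Cck and Calb2, each with a homecage peak of over 400 bp inside the gene, the Lhx6 peaks were narrow.

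**Figure D1:**
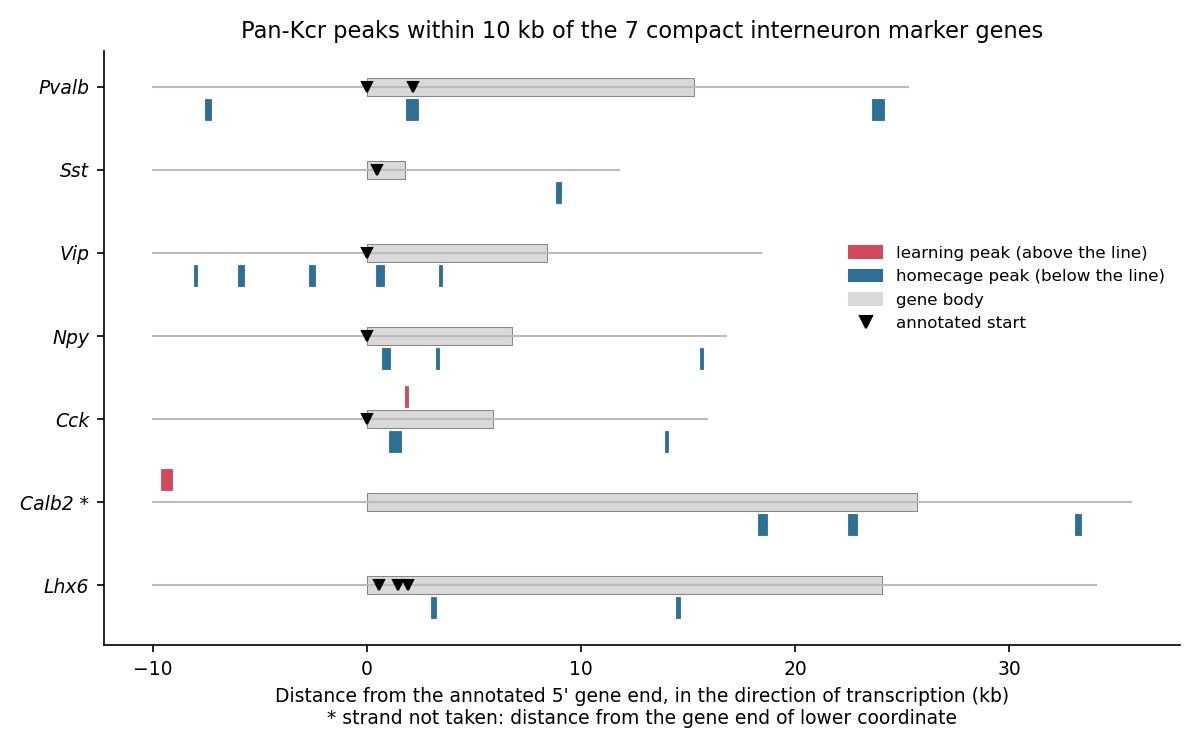
Peaks in the windows of the 7 genes shorter than 100 kb. The x axis is the distance from the 5′ gene end in kb (from the end of lower coordinate for Calb2), grey bars are gene bodies, triangles annotated starts, red bars above each line learning peaks and blue bars below it homecage peaks. Learning peaks are seen only at Cck, next to a homecage peak, and outside Calb2, and a homecage peak covers an annotated start only at Pvalb.

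The 7 genes shorter than 100 kb held 19 homecage peaks in 228 kb of window, or 8.34 per 100 kb (95% Poisson interval 5.02 to 13.0). The interval covers counting error only, and neighbouring peaks are not independent. All 7 had at least 1 homecage peak, where 93.3% of all protein-coding genes shorter than 100 kb had one. Over those genes together the density was 14.0 per 100 kb, at which windows of this total length would hold 32.0 peaks. For the learning library, 2 of the 7 genes had a peak, where 31.6% of such genes had one, and the 2 peaks compare with 2.47 at the density of all such genes. The learning count was therefore close to the background, and its interval, 0.106 to 3.17 per 100 kb, holds the 1.09 of all such genes. The homecage count was 0.595 times the background value. By homecage density the order was Vip (17.6 per 100 kb), Npy (11.2), Pvalb (8.50), Cck (7.73), Calb2 (6.57), Sst (4.59) and Lhx6 (4.54), and the intervals of all 7 overlapped. Of all protein-coding genes shorter than 100 kb, 71.1% had a lower density than Vip, 35.2% a lower one than Npy and 10.5% a lower one than Lhx6.

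The other 3 genes are long, and they held 275 of the 294 homecage peaks and 17 of the 19 learning peaks. All 3 had a learning peak in the window, where 66.1% of protein-coding genes of 100 kb or longer had one, and all 3 had a homecage peak, where 97.5% had one. Their 17 learning peaks compare with 12.5 at the density of all genes of that length class, and their 275 homecage peaks with 284. Over all 10 genes, 5 had a learning peak and 10 a homecage peak, where the shares of all protein-coding genes were 35.4% and 93.8%. None of the 17 learning peaks and 5 of the 275 homecage peaks lay in the flanks of the long genes.

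Erbb4 encodes a receptor tyrosine kinase that binds neuregulins and is concentrated in interneurons. The gene spans 1077 kb (chr1:68031884-69108576) on the minus strand. It held 11 learning peaks, 146 to 481 bp wide with a median of 304 bp, and its window held 162 homecage peaks, 147 to 1275 bp wide with a median of 360 bp. The whole lists had medians of 306 bp and 351 bp. The widest homecage peak of Erbb4, chr1:68269230-68270504 (1275 bp), contained a whole learning peak, chr1:68270048-68270404 (357 bp), 838 kb from the start. The next widest, chr1:68701304-68702574 (1271 bp) and chr1:68324980-68326090 (1111 bp), lay 65330 bp and 31399 bp from the nearest learning peak. The learning peak nearest to the start, chr1:69069203-69069615 (413 bp), was 38.4 kb downstream of it, and the nearest homecage peak, chr1:69102042-69102488 (447 bp), 5571 bp downstream. The 3 neighbouring learning peaks closest together at Erbb4, picked for that, lay within 5.48 kb (chr1:68630496-68635973), together with 2 homecage peaks. This run lay between 44.4% and 43.9% of the way along the gene. The median distance between neighbouring learning peaks in the whole list was 73149 bp. A run picked as the closest is expected to fall below a median, so no unusual clustering can be read from it. After this run, toward the start, followed 407 kb without a learning peak.

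A homecage peak overlapped 6 of the 11 learning peaks of Erbb4. The overlaps were 473 bp of the 481 bp peak at chr1:68129594-68130074, all 357 bp of the peak named above, 130 of 161 bp at chr1:68293420-68293580, 74 of 274 bp at chr1:68425643-68425916, 129 of 199 bp at chr1:68630496-68630694 and 215 of 304 bp at chr1:69043242-69043545. The remaining 5 lay between 108 and 2591 bp from a homecage peak.

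Reln encodes reelin, a secreted glycoprotein made in the hippocampus by Cajal-Retzius cells and by several interneuron types. The gene spans 460 kb (chr5:21884454-22344705) on the minus strand. The longest part of Reln without a homecage peak lay at its start. The first 38.8 kb of the gene were free of homecage peaks, and the peak-free stretch continued upstream to a length of 60.7 kb (chr5:22305929-22366582), with no learning peak in it either. Of all distances between neighbouring homecage peaks, 0.274% were as long. The stretch was picked as the longest at Reln, and a long distance covers more of the genome than its share of distances. Counted by starts, 4.91% of annotated protein-coding starts lay farther from a homecage peak than the Reln start. In 4 equal segments from start to end, Reln held 7, 19, 18 and 13 homecage peaks. Its 4 learning peaks were 253, 386, 283 and 421 bp wide and lay 30.5%, 33.0%, 77.6% and 98.7% of the way along the gene. The first of these, chr5:22204393-22204645, overlapped a homecage peak of 772 bp by 171 bp, and the others had none. The last, chr5:21890006-21890426, overlapped the pseudogene Gm16111 by 182 bp, so its reads may be shared with a related sequence and its place is uncertain. The 3 widest homecage peaks of Reln measured 845 bp (chr5:21977181-21978025), 824 bp (chr5:21899293-21900116) and 803 bp (chr5:22033042-22033844).

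Adarb2 encodes a brain-restricted member of the ADAR family of double-stranded RNA deaminases that has no known editing activity of its own. The gene spans 566 kb (chr13:8202526-8768762) on the plus strand. Its 2 learning peaks, chr13:8222826-8222975 (150 bp) and chr13:8334798-8335146 (349 bp), lay 20.0 kb and 132 kb downstream of the start, and the remaining 434 kb to the end of the gene held none. Neither overlapped a homecage peak, the gaps being 15099 bp and 1418 bp. The 55 homecage peaks included the widest at any of the 10 genes, 1402 bp at chr13:8434804-8436205, followed at this gene by 1041 bp at chr13:8497047-8498087 and 973 bp at chr13:8336565-8337537. The nearest to the start was 147 bp wide and began 3610 bp downstream. A stretch of 47.1 kb, chr13:8563016-8610070, held no homecage peak.

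**Figure D2:**
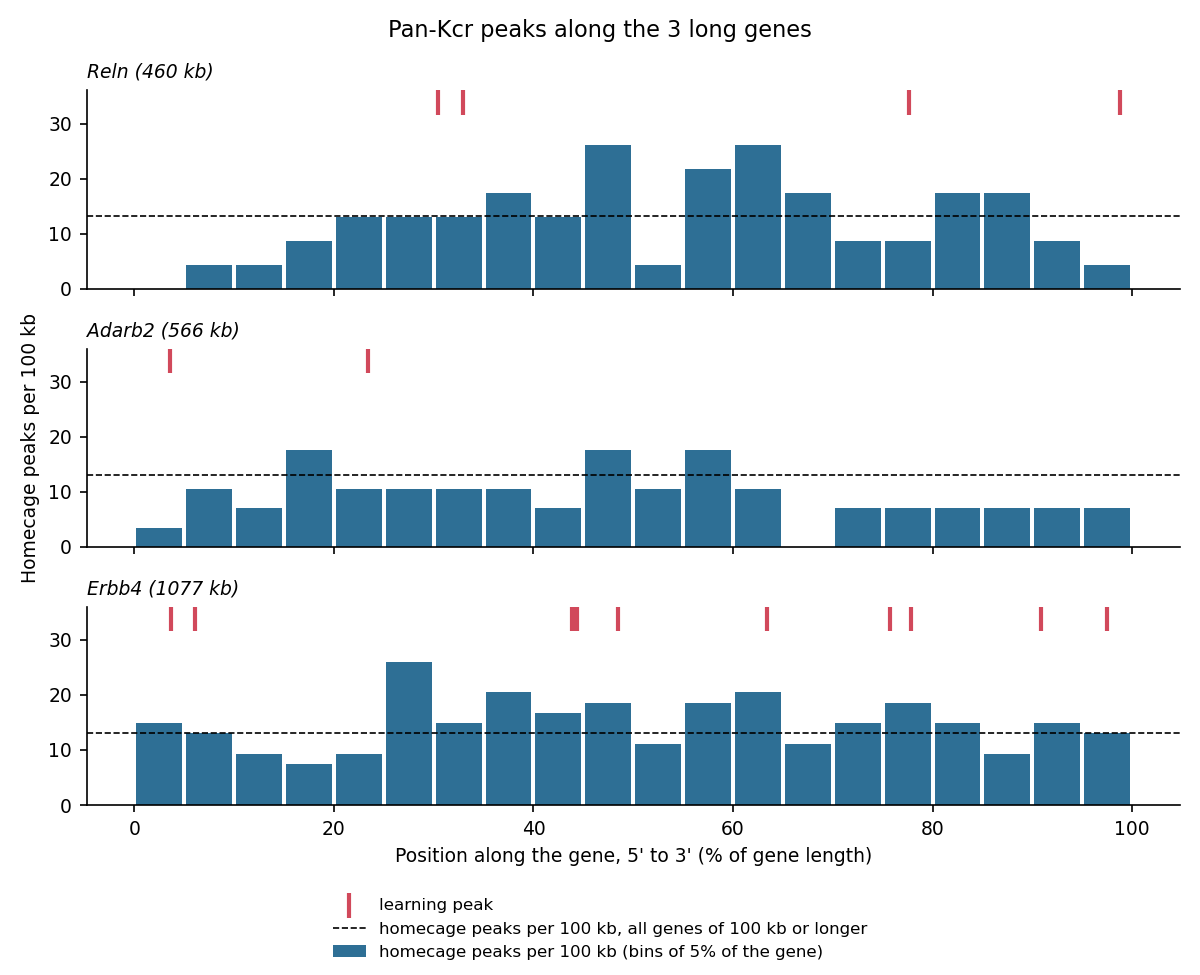
Peaks along the 3 long genes, from start to end, with the position as % of gene length on the x axis. Blue bars are homecage peaks per 100 kb in bins of 5% of the gene, red ticks are single learning peaks at a fixed height, and the dashed line is the homecage density of all genes of 100 kb or longer (13.1 per 100 kb). Reln has an empty bin at its start, Adarb2 has learning peaks only in its first part, and the learning peaks of Erbb4 are spread over the gene.

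By homecage density the long genes stood in the order Erbb4, with 14.8 peaks per 100 kb (95% Poisson interval 12.6 to 17.2), Reln, with 12.1 (9.17 to 15.6), and Adarb2, with 9.38 (7.07 to 12.2). The intervals of Erbb4 and Adarb2 narrowly missed each other, and those of Reln overlapped both. These intervals take neighbouring peaks as independent, which they are not. With peaks closer than 1 kb merged, Erbb4 had 147 homecage peaks and Adarb2 52, and no interval was computed for these counts. The narrow separation is therefore no ground for calling Erbb4 and Adarb2 different. Among genes of 100 kb or longer, 65.1% had a lower density than Erbb4, 31.8% a lower one than Reln and 9.96% a lower one than Adarb2. Homecage peaks covered 5.94% of the Erbb4 window, 4.65% of the Reln window and 3.78% of the Adarb2 window, against 5.26% over the windows of all genes of that length class. The learning densities were 1.00 (0.501 to 1.79), 0.833 (0.227 to 2.13) and 0.341 (0.0413 to 1.23) per 100 kb, in the same order but with overlapping intervals, against 0.579 for the class.

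**Figure D3:**
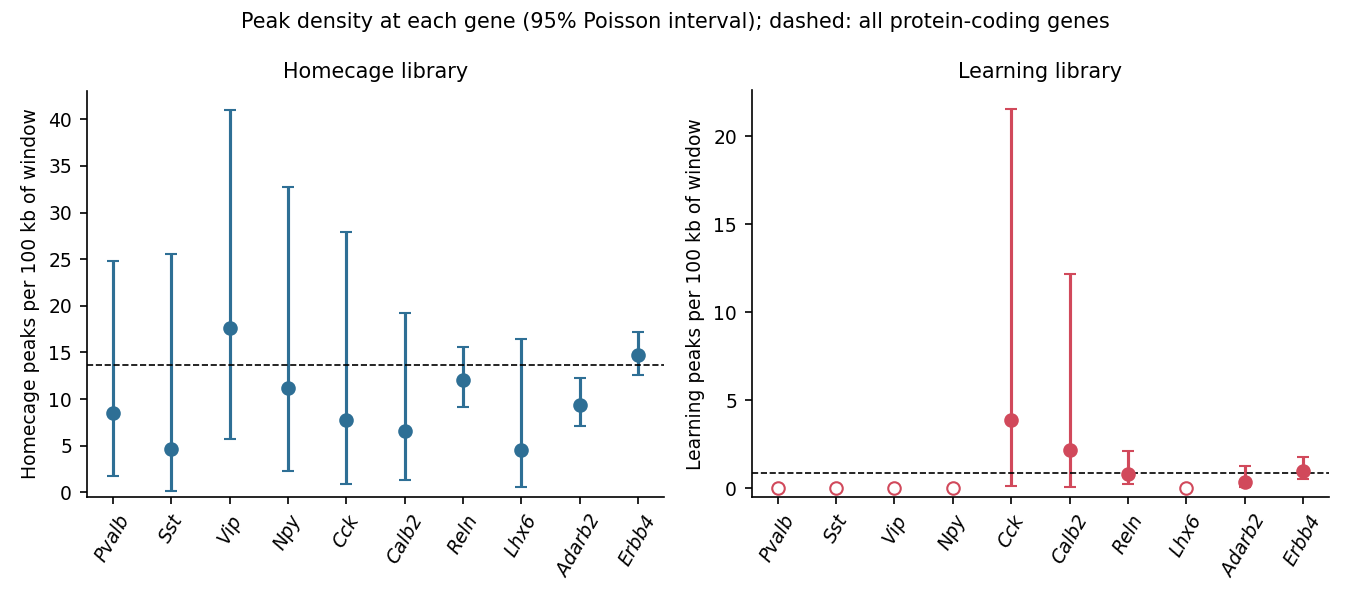
Peaks per 100 kb of window at each gene in the homecage library (left) and the learning library (right). Points are densities, bars 95% Poisson intervals (counting error only), open circles genes with no peak, and dashed lines the density over all protein-coding genes (13.6 homecage and 0.857 learning peaks per 100 kb). The interval of Erbb4 in the homecage library lies just above that of Adarb2, with neighbouring peaks taken as independent. The wide intervals of the compact genes overlap one another.

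At the 10 genes together, 7 of the 19 learning peaks (36.8%) were shared, that is, overlapped by a homecage peak, 6 at Erbb4 and 1 at Reln, compared with 43.1% of all learning peaks. So 2 of the 10 genes had a shared peak in the window, where 21.1% of all protein-coding genes had one. By length class, 7 of the 17 learning peaks at the 3 long genes were shared (41.2%). Over the windows of all genes of 100 kb or longer the share was 38.7%. Of the 2 learning peaks at the compact genes, 0 were shared, against 54.7% over all genes shorter than 100 kb. The 12 learning peaks without overlap lay 108 to 16227 bp from the nearest homecage peak, with a median of 1469 bp, against 1485 bp for all learning peaks without overlap. Of the 294 homecage peaks, 7 (2.38%) overlapped a learning peak. In the whole lists, 6898 of 16002 learning peaks overlapped a homecage peak, out of 331236 homecage peaks. A low share is therefore common to the whole homecage list and is not particular to these genes. The median widths at the 10 genes, 304 bp for learning and 353.5 bp for homecage peaks, were close to those of the whole lists. The homecage list as a whole was 20.7 times as long as the learning list, and the read depth behind both is unknown, so a gene with a homecage peak alone cannot be read as having lost the mark after training.

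The regulatory and signalling partners of the marker genes were taken from fixed lists. Of 20 transcription factors of interneuron development, 5 had a learning peak in the window (Zeb2, Nr2f1, Prox1, Npas3 and Sox6) and 16 a homecage peak, where 35.4% and 93.8% of all protein-coding genes had one. Of the 17 factors shorter than 100 kb, 2 had a learning peak and 13 a homecage peak. Among all protein-coding genes of that class the shares were 31.6% and 93.3%. Dlx1, Dlx2 and Nkx2-1, which specify ventral forebrain progenitors and interneurons, were among the factors without any peak and were named after their values were seen. Dlx1 and Dlx2 are neighbours and their windows overlap. The widest learning peak at Nr2f1, a nuclear receptor expressed in the caudal ganglionic eminence, was 707 bp (chr13:78198623-78199329) and lay wholly under a homecage peak of 1123 bp. At Zeb2, a zinc finger factor of interneuron development, it was 1048 bp (chr2:45109295-45110342) and overlapped a homecage peak of 1565 bp.

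Of 24 further interneuron markers, 8 had a learning peak and 23 a homecage peak, Pthlh being the exception. Both counts were near the 35.4% and 93.8% of all protein-coding genes. The widest learning peak among them, 833 bp at chr4:15914900-15915732, lay within 10 kb of Calb1, the calbindin gene, outside the gene body, and wholly under a homecage peak of 3085 bp. Calb1 is a relative of Calb2, whose own learning peak had no homecage partner. At Kcnc2, a potassium channel subunit of fast-spiking cells, the widest learning peak was 284 bp and lay 947 bp from a homecage peak.

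Among 13 receptors for the peptides of Sst, Npy, Vip and Cck, 5 had a learning peak and all 13 a homecage peak. All 13 genes are shorter than 100 kb, and 31.6% and 93.3% of all such genes had one. Npy1r and Npy5r, neighbouring receptor genes for neuropeptide Y, shared the same learning peak of 428 bp (chr8:66687553-66687980), which a homecage peak of 732 bp overlapped by 229 bp. Vipr1 had a learning peak of 364 bp, 317 bp of it under a homecage peak, and Sstr3 one of 375 bp that lay 2529 bp from a homecage peak. Adcyap1r1, the receptor of the peptide PACAP, a relative of vasoactive intestinal peptide, had one of 859 bp, 810 bp of it under a homecage peak.

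Of 8 genes of the reelin pathway, 7 (all but Crkl) had a learning peak and 6 had one shared with the homecage list, where 35.4% and 21.1% of all protein-coding genes did. The reelin receptor genes Lrp8 and Vldlr had 2 learning peaks each, the widest of 359 bp and 498 bp, and both of these overlapped a homecage peak. Dab1, the adaptor that the receptors phosphorylate through Src family kinases, had 6 learning and 172 homecage peaks over 1125 kb. Src had a 730 bp learning peak (chr2:157424049-157424778) wholly under a 1957 bp homecage peak. The median length of these 8 genes was 49.2 kb, against 17.2 kb for all protein-coding genes. Of the 6 that are shorter than 100 kb, 5 had a learning peak, where 31.6% of all such genes had one, and their density was 2.02 learning peaks per 100 kb (95% Poisson interval 0.873 to 3.99) against 1.09. Of the 7 other neuregulin and ErbB family genes, 4 had a learning peak, where the share was 35.4% of all protein-coding genes and 66.1% of those of 100 kb or longer. Only 3 of the 7 are shorter than that. The ligand genes Nrg1 and Nrg3 span 1084 kb and 1108 kb, slightly more than Erbb4. They had 1 and 3 learning peaks against 11 at Erbb4, and 133 and 148 homecage peaks against 162. Dab1, of similar length, had 6 and 172. Among all protein-coding genes of 100 kb or longer, 79.0% had a lower learning density than Erbb4. Nrg2 had a single learning peak of 1226 bp, 716 bp of it under a homecage peak. Erbb2, the co-receptor, had 2 learning peaks, and Erbb3 and Egfr had none. The relatives of Adarb2 with known editing activity, Adar and Adarb1, had 1 learning peak each, and the Adar peak of 299 bp lay wholly under a homecage peak of 580 bp.

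Markers of other hippocampal cell types gave a comparison among genes shorter than 100 kb. The homecage density was 19.2 per 100 kb (95% Poisson interval 16.3 to 22.5) at 16 excitatory neuron genes, 13.5 (10.3 to 17.4) at 11 astrocyte genes and 14.5 (11.0 to 18.8) at 11 oligodendrocyte genes, against 8.34 at the 7 interneuron markers. The interval of the excitatory genes did not overlap that of the interneuron markers, and the glial ones did. These intervals do not measure the spread between genes of a list. Single excitatory genes ranged from 4.35 to 53.7 homecage peaks per 100 kb, and single interneuron markers from 4.54 to 17.6. A learning peak was present at 10 of 16, 5 of 11 and 5 of 11 of these genes, against 2 of 7 interneuron markers and 31.6% of all protein-coding genes shorter than 100 kb. Interneuron transcription factors (17 genes) and the further interneuron markers (20 genes) stood at 13.2 and 11.9 homecage peaks per 100 kb, with intervals of 10.7 to 16.2 and 9.84 to 14.3. These differences between lists were not tested, because the libraries have no replicates and the genes of a list are not replicates of a condition.

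**Figure D4:**
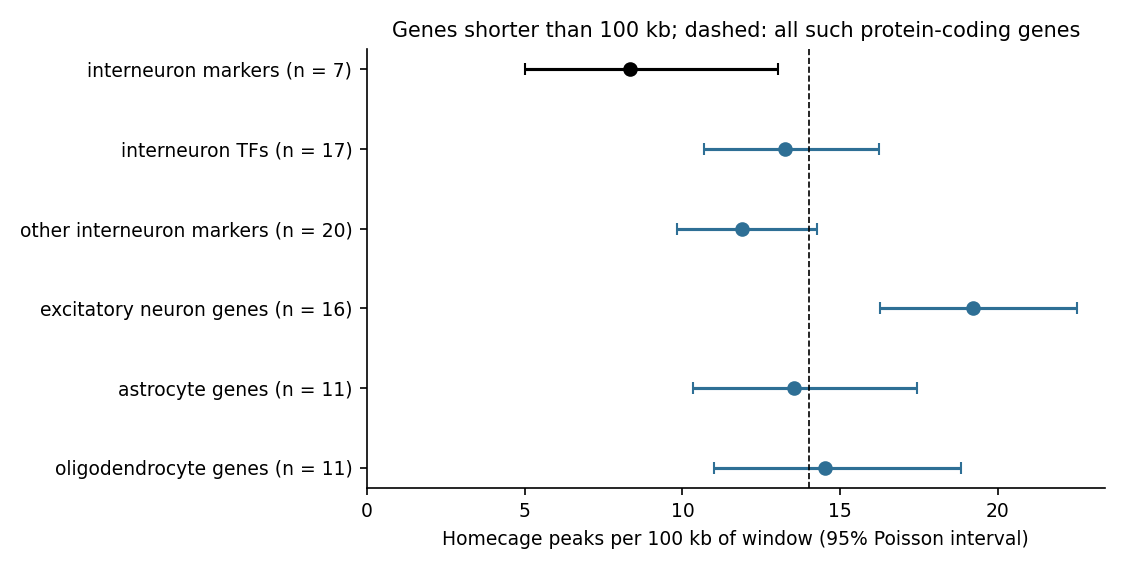
Homecage peaks per 100 kb of window over the genes shorter than 100 kb of 6 lists, with 95% Poisson intervals for counting error. The dashed line marks all protein-coding genes of that class (14.0 per 100 kb). The 7 interneuron markers have the lowest value of the 6 lists, 8.34, and the excitatory neuron genes the highest, 19.2.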

How the data were processed

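The deposited files are lists of broad peaks with chromosome, start, end and name, and no strength, read count or depth. Their names give a p-value threshold of 0.01, and per the submitters' processing notes Trimmomatic, BWA, MACS2 and mm10 were used, with no versions. Use of an input library as control is not given in the sources used here. Of the 12 samples, the 8 single-nucleus and 2 input libraries were not used here, and the conditions were read from the titles. Peaks were counted in gene windows by overlap of at least 1 bp, with 1-based positions. Exon positions were not used here. Background densities sum over windows that can overlap, so a peak can count for several genes.

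All 10 genes were named. Where a list had more than 10 peaks at a gene, the learning peaks, the 3 widest homecage peaks and the one nearest to the start were given. In the other lists the genes that could be named were those with the widest learning peaks, up to 5 per list, and genes without a peak were named outside this rule, after their values were seen. All 120 entries of those lists matched a gene, with Prox1 and Calb1 each in 2 lists. Some genes of these lists are not reported by name here. The members and lists were chosen with earlier results of these data known. Counting was tested on simulated peaks, with the planted number recovered at 158 of 158 genes. Python 3.11.15 was used, with scipy 1.17.1 for intervals, pandas 2.3.3 for tables, matplotlib 3.10.9 for plots and numpy 2.4.6.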

Additional observations from a re-analysis of the deposited data

How the results depend on the processing

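No paired analysis was possible because the learning and homecage conditions had a single antibody library apiece, which also left no replicate to omit. As reported, the 10 windows held 19 learning peaks (0.795 per 100 kb) at 5 genes, 7 of them shared, and 294 homecage peaks (12.3 per 100 kb) at 10 genes. With peaks of at least 300 bp there were 10 learning peaks (0.418 per 100 kb), 3 of them shared, and 167 homecage peaks (6.98 per 100 kb). With peaks of at least 500 bp there was 1 learning peak (0.0418 per 100 kb) at 1 gene, with 0 shared, and 76 homecage peaks (3.18 per 100 kb) at 5 genes. In the whole lists, 2503 of 16002 learning peaks and 82048 of 331236 homecage peaks were that wide. Without Erbb4 the counts were 8 learning peaks, 1 of them shared, and 132 homecage peaks (10.2 per 100 kb), so Erbb4 carried most of the learning peaks. The genes shorter than 100 kb alone held 2 learning peaks at 2 genes, 0 shared, and 19 homecage peaks (8.34 per 100 kb). Counting a homecage peak within 1 kb as shared raised the shared learning peaks to 11. With the homecage list reduced to its widest 16002 peaks, an alternative chosen after the data were seen, 13 homecage peaks (0.544 per 100 kb) at 2 genes remained in the windows and 1 learning peak was shared. The share of all protein-coding genes was not computed with peaks of at least 500 bp or with the reduced list. The gene counts under those settings therefore have no background and say nothing particular about these genes. In all, 43 of 69 recomputed values stayed within 1.5 times the reported count or within the counting interval of the density, and 26 moved beyond it. Flanks of 0, 5 and 25 kb, merging within 1 kb, peak centres and an overlap of at least 50% moved none of them that far. Counts at single compact genes did move with the flank. In the gene body alone, homecage peaks fell from 3 to 1 at Pvalb, from 5 to 2 at Vip, from 2 to 1 at Cck and from 1 to 0 at Sst, and the learning peak of Calb2 was lost. Within 25 kb they numbered 10 at Npy, 7 at Pvalb, 6 at Cck and 3 at Sst. Of 182 recomputed counts at single genes, 52 moved by over 1.5 times.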
